A study of Homo sapiens with 54 samples.

Results

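Low-dose cisplatin (CDDP) on top of olaparib was examined in parental MDA-MB-468 cells, a human triple-negative breast cancer (TNBC) line with wild type BRCA1. The comparison rests on 6 of the 54 libraries of the series: 3 from cells given 3 µM olaparib together with 1 µM CDDP, and 3 from cells given 3 µM olaparib without CDDP. The libraries were chosen by their labels and by no measured value, and all 13012 genes that passed the filter on low values, of 27470 in the table, were tested. Drugs were given overnight, which the study's text puts at 12 h, and 1 µM was the lower of the CDDP doses used on this line. For comparison there were 3 libraries each of untreated parental cells, of parental cells given 1 µM CDDP without olaparib, of parental cells given olaparib with 2.5 µM CDDP, and of an olaparib resistant derivative (OlaR) kept in 15 µM olaparib, without CDDP or with 1 µM CDDP. There were also 3 libraries each of parental cells given 2.5 µM CDDP without olaparib and of OlaR cells given 2.5 µM CDDP. These entered the fit over all libraries of the line, which gave the spread for the main tests. They are shown in the plot of adjusted read counts by condition, and no comparison of them is given. OlaR cells were obtained from MDA-MB-468 by stepwise olaparib exposure over months and were never taken off the drug, so that acquired resistance and continuous exposure cannot be told apart. The labels do not say whether the 3 libraries of a condition came from separate cultures, so the p-values measure the spread between libraries, which may be technical.

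Olaparib inhibits PARP-1, the enzyme that marks DNA strand breaks and recruits repair factors, and traps it on DNA. CDDP binds purines and crosslinks them, mainly within a strand, and the lesions stall DNA and RNA polymerases until nucleotide excision repair, translesion synthesis or homologous recombination (HR) deals with them. Several transcript programmes are known to move in cells so treated. The integrated stress response (ISR) acts through phosphorylated eIF2α and the transcription factor ATF4, which drives amino acid synthesis and transport genes, CHAC1 and DDIT3. E2F factors drive replication genes in late G1 and S phase, and the mitotic genes, repressed by the DREAM complex and switched on by B-MYB and FOXM1, peak in G2 and M phase.

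Each library gave between 5948122 and 9268162 reads in these 6 libraries, against 2070301 to 9268162 over the 27 MDA-MB-468 libraries. The method sequences a tag near the 3′ end of polyadenylated RNA, so levels were compared between conditions within a gene and not between genes. Across 11052 genes the log2 values of libraries of the same condition correlated at 0.984 to 0.987 and those of different conditions at 0.979 to 0.986, which describes how small the overall separation was. Epithelial markers of the line, all 8 of 8 measured, summed to between 25430 and 26950 adjusted read counts with olaparib and to between 22170 and 22940 with olaparib and CDDP, with KRT8 and KRT19 called lower and CLDN7 higher. Among the hormone receptor markers PGR and TFF1 were at or near 0 and ESR1 at 33.8 to 52.4. The markers of mesenchymal cells summed to 51.2 to 68.7 and those of fibroblasts and immune cells to 35.1 to 62.5, and none of these was called.

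At 1 µM, CDDP added to olaparib changed few genes by much and many by little. By the study's own limits for a differentially expressed gene (DEG), an adjusted p (false discovery rate, FDR) of at most 0.05 and a fold change of at least 2, 19 genes were higher and 4 were lower, 23 in all or 0.177% of the 13012 genes tested. With the same adjusted p and no limit on the fold change, 299 genes (2.3%) were higher and 386 (2.97%) were lower, 685 in all or 5.26%, and 2270 genes had an unadjusted p under 0.05. With each library centred on its median the split moved to 252 higher and 518 lower, so that the share called higher fell from 43.6% to 32.7%. The test was limma with an intensity trend on log2(adjusted read count + 1), a scale that understates the change of genes with few reads. Its spread came from all 27 libraries of the line. Fitted on the 6 libraries alone, with 11919 genes past the filter, it called 321 genes and 13 DEGs, and edgeR on the recovered reads called 902 genes, 682 of them among the 685, and 38 DEGs.

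The called shifts were small. Their median size was 0.352 on the log2 scale, with the middle 50% between 0.277 and 0.478. Of the 685 genes, 153 changed less than 1.2-fold, 430 between 1.2- and 1.5-fold, 79 between 1.5- and 2-fold and 23 by 2-fold or more, so that 85.1% lay under 1.5-fold. In 634 of them (92.6%) the 3 libraries with CDDP did not overlap the 3 without it, whereas over all genes tested this held for 18.9%, with 8.72% higher and 10.2% lower. The same libraries made the calls, so the first share is no separate support for them. Which genes could be called depended on their level. With the genes split by mean level into 4 sets of 3253, 0.492% were called in the lowest set, then 1.88% and 4.95%, and in the highest 13.7%, while the median standard error (SE) of the log2 fold change fell from 0.444 to 0.0759. The direction moved with the level too: in the lowest set 16 genes were called higher and 0 lower, and in the highest 139 higher and 308 lower. A shift of 1.2-fold in a gene with few reads was therefore not detectable at this depth. Without 1 library, between 453 genes (without olaparib replicate 2) and 690 (without olaparib replicate 3) were called. The number of DEGs was 36 without olaparib replicate 1 or CDDP replicate 3 and 37 without olaparib replicate 3.

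**Figure D1:**
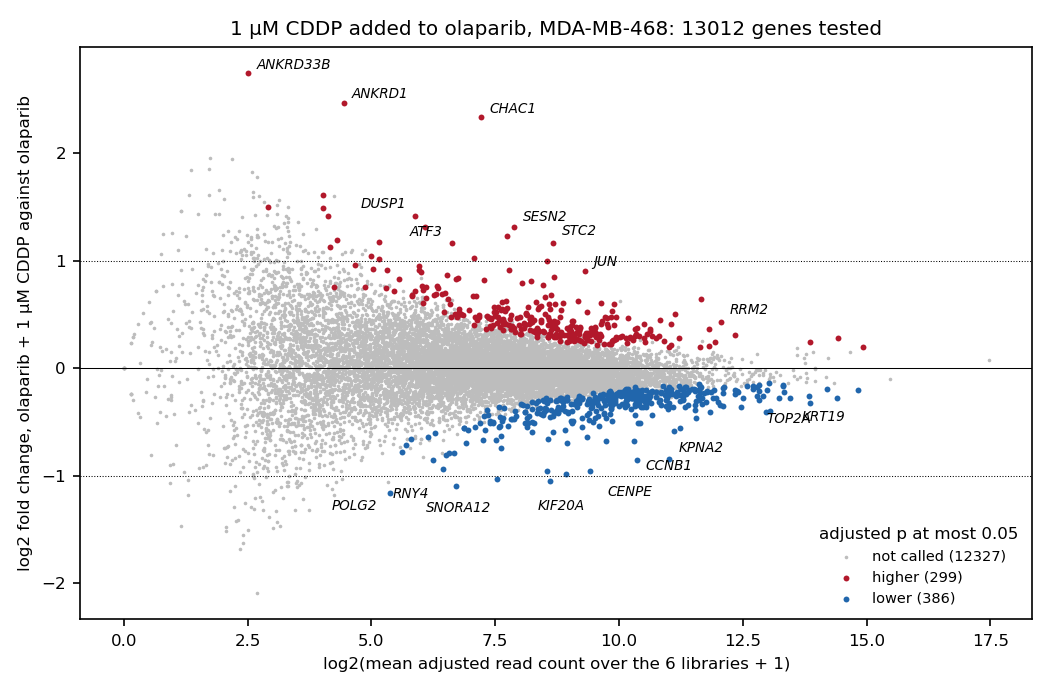
Log2 fold change between olaparib with 1 µM CDDP and olaparib (y axis) against log2 of the mean adjusted read count over the 6 libraries plus 1 (x axis), 1 point per gene, with the 299 genes called higher in red, the 386 called lower in blue and dotted lines at a 2-fold change. Most called genes lie inside the dotted lines, 19 of the 23 beyond them are higher, and the called genes at high levels are mostly lower.

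Genes of the ISR made up 6 of the 10 higher genes with the smallest p-values. CHAC1, which encodes an enzyme that degrades glutathione and is a classical target of ATF4 and DDIT3 (chr15:40953471-40956512, GRCh38.p14), gave 42.2, 58.9 and 44.8 adjusted read counts with olaparib and 257, 226 and 259 with olaparib and CDDP. The conditions were far apart, and the rise was 5.05-fold (log2 fold change 2.34 ± 0.132 SE, n = 3 each, limma adjusted p = 3.64e-19). STC2, a secreted glycoprotein of the ER stress response, gave 247, 236 and 274 without and 594, 536 and 566 with CDDP, a rise of 2.24-fold (adjusted p = 5.83e-15). SESN2, a sestrin that restrains mTORC1 and is also a p53 target, rose 2.49-fold from 140, 134 and 129 to 376, 343 and 293 (adjusted p = 1.59e-11). For none of these genes did the conditions overlap. SLC7A11, the cystine importer, gave 165, 93.7 and 129 without and 319, 269 and 302 with CDDP, which is 2.34-fold higher (adjusted p = 2.16e-10). Its antisense gene SLC7A11-AS1 lies within the same interval, and the counting is not stated to use strand. ATF3, a stress factor that feeds back on ATF4 targets, rose 2.25-fold from 52.1, 71.7 and 55.3 to 106, 146 and 155 (adjusted p = 1.66e-06). Outside the list ADM2, an adrenomedullin-family peptide, went from 53.1, 35.6 and 27.4 to 108, 82 and 94.8, again without overlap, and rose 2.49-fold (adjusted p = 3.09e-05).

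Across the ISR list, 17 of the 21 genes tested were higher and 0 lower, where 2.3% of all genes tested were higher. The median log2 fold change of the list was 0.475, beside -0.000988 over all genes. This list and those below were drawn up with earlier results of these data known, so their counts describe the members and are no separate support. ASNS, asparagine synthetase, rose 1.75-fold, from 215, 191 and 241 to 416, 376 and 342 (adjusted p = 4.44e-09). SLC3A2, the heavy chain that carries SLC7A11 and SLC7A5 to the membrane, rose 1.52-fold, from 666, 624 and 590 to 917, 971 and 978 (adjusted p = 5.55e-09). TRIB3, a pseudokinase that restrains ATF4, rose 1.44-fold (adjusted p = 1.27e-06), MTHFD2 of mitochondrial one-carbon metabolism 1.38-fold, PHGDH of serine synthesis 1.31-fold and CEBPG, an ATF4 partner, 1.29-fold. The transcript of ATF4 itself moved little, from a mean of 3392 to 3599 (log2 fold change 0.08, adjusted p = 0.445), and CEBPB, VLDLR and PPP1R15A were not called either, the last at 0.41 with an adjusted p of 0.0531. Without any 1 of the 6 libraries, between 14 and 17 members were called higher. DDIT3, PSAT1, DDIT4, SLC7A5 and CTH lost their call without at least 1 library, with adjusted p up to 0.145, and for SLC7A5, the leucine importer, it rested on CDDP replicate 1 (1503 against 988 and 951), without which the log2 fold change went from 0.48 to 0.26 (adjusted p = 0.0654). The summed level of the ISR genes stayed below that of untreated cells in each of the 6 libraries. It was 21730 to 22710 in untreated cells, 14360 to 14620 with olaparib and 17410 to 18970 with olaparib and CDDP. Olaparib against untreated, which shares its olaparib libraries with the comparison here, had 0 members higher and 19 lower, where 9.11% of all genes were lower.

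**Figure D2:**
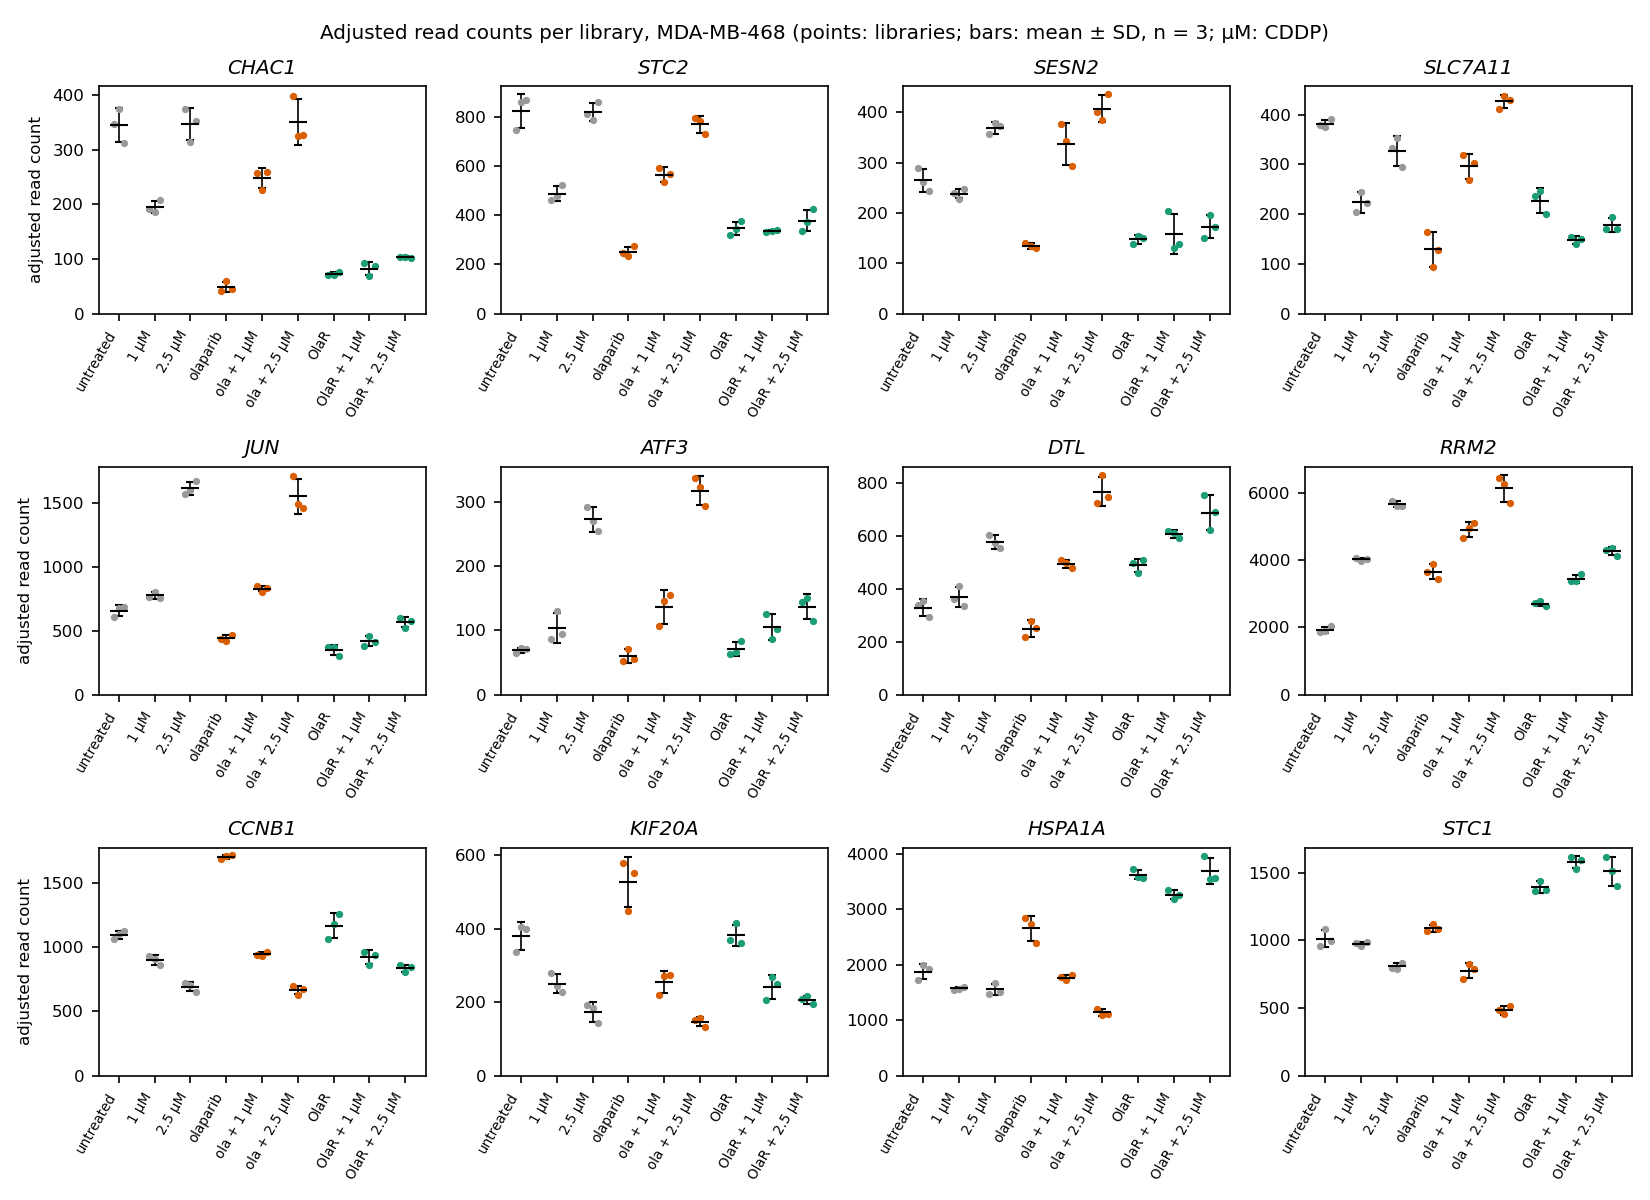
Adjusted read counts (y axis, from 0) of 12 genes in each of the 27 MDA-MB-468 libraries (points), with the mean ± SD of 3 libraries (bars), for the 9 conditions along the x axis. CHAC1, STC2, SLC7A11 and JUN are lower with olaparib than in untreated cells and higher again with 1 µM CDDP, CCNB1, KIF20A and HSPA1A run the other way, and RRM2 is higher with each addition.

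The promoter sequences of 3 of these genes are printed because each holds the ATF4-C/EBP composite element, TGATGNAAN on either strand, which is marked in capitals. They are the 250 bases before the annotated start, 5′ to 3′ on the strand of the gene, from RefSeq (GRCh38.p14): CHAC1 at chr15:40953221-40953470 (+), ATF3 at chr1:212565157-212565406 (+) and ASNS at chr7:97872409-97872658 (-). Matches begin 210, 191 and 68 bases before the start.
CHAC1: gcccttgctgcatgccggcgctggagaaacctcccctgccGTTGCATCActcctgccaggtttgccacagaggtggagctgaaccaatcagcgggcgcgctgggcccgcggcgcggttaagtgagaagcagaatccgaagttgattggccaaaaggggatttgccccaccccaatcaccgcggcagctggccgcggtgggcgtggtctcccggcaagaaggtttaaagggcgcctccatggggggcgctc
ATF3: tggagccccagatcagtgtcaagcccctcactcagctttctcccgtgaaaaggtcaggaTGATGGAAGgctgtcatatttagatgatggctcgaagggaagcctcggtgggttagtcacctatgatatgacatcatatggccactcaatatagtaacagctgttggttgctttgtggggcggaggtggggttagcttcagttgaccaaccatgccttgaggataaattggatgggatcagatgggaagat
ASNS: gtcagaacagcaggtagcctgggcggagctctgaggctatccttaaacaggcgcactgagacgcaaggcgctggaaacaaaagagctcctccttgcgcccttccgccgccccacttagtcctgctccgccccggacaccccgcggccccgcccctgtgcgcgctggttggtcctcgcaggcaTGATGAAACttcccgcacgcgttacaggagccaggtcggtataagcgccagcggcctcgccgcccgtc
The element was found in 4 of the 15 called ISR genes with a promoter entry (26.7%, windows of 300 bases that include the first 50 transcribed bases). Of the 19 ISR genes tested with an entry it was in 4 (21.1%). It was also in 9 of the 250 genes called higher with an entry (3.6%), in 160 of the 10231 genes tested with an entry (1.56%) and in 3.61% of all 35116 promoters. A match is a description of the letters and not a binding site.

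Immediate early genes rose in part. JUN, an AP-1 subunit, gave 436, 423 and 467 adjusted read counts with olaparib and 849, 806 and 835 with CDDP added. The libraries did not overlap, and the rise was 1.88-fold (log2 fold change 0.91 ± 0.0787 SE, adjusted p = 2.48e-12). CYR61, a secreted YAP and SRF target, rose 1.59-fold from 311, 252 and 277 to 473, 418 and 440 (adjusted p = 3.58e-06), and the zinc finger factor KLF6 rose 1.54-fold (adjusted p = 0.000147). JUND rose 1.42-fold, with replicate 1 at 3406 above the other two at 2275 and 2298. Of 24 genes of the list 10 were higher and 1, MYC, was lower, with a median of 0.429. Over all genes tested 2.3% were higher and 2.97% lower, and ATF3 is counted in the ISR list too. The summed level of the list overlapped between conditions. It was 15840 to 17840 with olaparib and 17640 to 21040 with olaparib and CDDP, where replicate 1 was highest. Without olaparib replicate 2, and likewise without CDDP replicate 3, 6 genes were higher. EGR1, FOSL2, JUNB, NR4A1 and CTGF lost their call without at least 1 library, with adjusted p up to 0.225. MYC overlapped between conditions and lost its call without 4 of the 6 libraries, with adjusted p up to 0.349. FOS itself was not called (log2 fold change 0.31, adjusted p = 0.465).

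Over all genes tested 5.26% were called, and among the MAPK feedback genes 1 of 21 was. It was DUSP1, a phosphatase of JNK, p38 and ERK, which went from 30.6, 27 and 35.8 to 99.8, 82.5 and 72.5, a rise of 2.67-fold without overlap (adjusted p = 2.36e-05). DUSP6, the ERK phosphatase that the study picked out, gave 12.7, 14.1 and 16.3 without and 32.4, 4.29 and 27.4 with CDDP, which overlapped (log2 fold change 0.16, adjusted p = 0.891). The study picked out DUSP6 at the higher CDDP dose, which is not the dose compared here. Of the 8 EGF receptors and ligands HBEGF alone was called, at 11, 3.5 and 13.3 against 22.8, 28.8 and 19.6, and its adjusted p was 0.3 without olaparib replicate 2, 0.0737 without CDDP replicate 1 and 0.122 without CDDP replicate 2. EGFR, amplified and abundant in this line, was at 2106 to 2261 and 2218 to 2578 and was not called (adjusted p = 0.172).

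Replication genes rose together by small amounts. Of the 39 E2F targets and replication genes tested, 26 were higher and 0 lower, where 2.3% of all genes tested were higher. The median log2 fold change of the list was 0.406, beside -0.000988 over all genes, and 38 of the 39 had a positive fold change. DTL, the substrate receptor that sends CDT1 and p21 for degradation in S phase, rose 2-fold, from 217, 280 and 250 to 509, 498 and 478 (log2 fold change 1.00 ± 0.089 SE, adjusted p = 6.31e-12), just short of the 2-fold limit, which it passed without olaparib replicate 2 or 3 or CDDP replicate 3 (1.02 on the log2 scale without the last). CDC6, which loads the MCM helicase, gave 450, 461 and 447 without and 684, 764 and 653 with CDDP, 1.54-fold higher (adjusted p = 1.35e-08). RRM2, the inducible subunit of ribonucleotide reductase, rose 1.34-fold from 3658, 3881 and 3426 to 4650, 4968 and 5106 (adjusted p = 4.75e-08). In all 3 genes every library with CDDP lay above every library without it. CLSPN, the adaptor through which ATR activates CHK1, rose 1.51-fold, E2F2 1.53-fold, TK1 1.45-fold, PCNA 1.25-fold and MCM7 1.22-fold. Without any 1 library the list had 23 to 27 higher members, and MCM4, MCM5, CDC45, E2F1, EXO1 and UNG lost their call without at least 1, with adjusted p up to 0.392. The summed level of the list was 19300 to 19850 in untreated cells, 22390 to 22520 with olaparib and 29030 to 29260 with olaparib and CDDP.

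Mitotic genes fell together. Of 47 genes of G2 and mitosis tested, 0 were higher and 32 lower. Over all genes tested 2.97% were lower, and in the set of 3253 with the highest levels 308 were. The median log2 fold change of the list was -0.344, and 46 of the 47 had a negative fold change. CCNB1, cyclin B1, gave 1691, 1710 and 1719 adjusted read counts with olaparib and 939, 930 and 966 with CDDP added, and fell 1.81-fold (log2 fold change -0.85 ± 0.065 SE, adjusted p = 3.26e-14). KIF20A, a kinesin of the central spindle, went from 580, 449 and 553 to 219, 270 and 273, 2.07-fold lower and the only mitotic gene past the 2-fold limit (adjusted p = 5.92e-09). Its interval overlaps CDC23, and its log2 fold change was -0.97 without olaparib replicate 1 and -0.95 without CDDP replicate 1, inside the limit. PLK1, the polo-like kinase, went from 482, 410 and 588 to 252, 253 and 249, which is 1.94-fold lower (adjusted p = 1.36e-07). CENPE of the kinetochore fell 1.93-fold (adjusted p = 2.76e-11), the kinase AURKA 1.6-fold (adjusted p = 3.32e-11), CDC20, an activator of the anaphase promoting complex, 1.6-fold (adjusted p = 2.58e-08) and, outside the list, CDCA8 of the chromosomal passenger complex 1.42-fold (adjusted p = 1.78e-07). No library of one condition reached the other in any of these 7 genes. CDK1 fell by 0.18 on the log2 scale and lost its call without each of 5 libraries. KPNA2, an importin also outside the list whose transcript peaks in G2 and M, fell 1.79-fold, from 2466, 2739 and 2695 to 1490, 1465 and 1450 (adjusted p = 6.65e-13). Without any 1 library between 26 and 31 members of the list were called lower. KIF23, CENPA, CDC25B, HMMR, PRC1, PIF1, KIF14 and ECT2 lost their call without at least 1, with adjusted p up to 0.324. In bulk RNA, fewer cells in G2 or mitosis and less of these transcripts per cell cannot be told apart.

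The summed level of the mitotic genes came closer to that of untreated cells, while single members went below it. The list summed to 62380 to 66960 with olaparib, to 49890 to 51430 with olaparib and CDDP, and to 47650 to 48640 in untreated cells. CCNB1 stood at 1064, 1101 and 1127 in untreated cells and CDC20 at 711, 694 and 716, against 622, 684 and 649 with both drugs. CENPE stood at 1079, 868 and 819 in untreated cells and fell to 432, 462 and 508 with both drugs. KIF20A was at 337 to 405 and PLK1 at 297 to 372 in untreated cells, so that with both drugs all 5 genes lay below every untreated library. Olaparib against untreated, with which the comparison here shares libraries, had 34 members higher (12.4% of all genes were) and 0 lower.

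The promoters of 3 of the mitotic genes are printed for the letters bound by DREAM, MuvB and NF-Y complexes: the CHR element TTTGAA and the CCAAT box, on either strand and in capitals. These are again the 250 bases before the start on the strand of the gene (RefSeq, GRCh38.p14), CDC20 at chr1:43358731-43358980 (+), PLK1 at chr16:23678639-23678888 (+) and CCNB1 at chr5:69166900-69167149 (+). CDC20 and PLK1 hold both, with a CHR 65 and 29 bases before the start, and CCNB1 holds CCAAT boxes 87 and 55 bases before the start and no TTTGAA in this window.
CDC20: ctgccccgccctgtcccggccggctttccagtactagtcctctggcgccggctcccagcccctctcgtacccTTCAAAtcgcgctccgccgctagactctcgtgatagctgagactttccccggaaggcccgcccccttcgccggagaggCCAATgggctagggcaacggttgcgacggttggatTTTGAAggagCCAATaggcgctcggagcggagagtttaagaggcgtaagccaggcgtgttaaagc
PLK1: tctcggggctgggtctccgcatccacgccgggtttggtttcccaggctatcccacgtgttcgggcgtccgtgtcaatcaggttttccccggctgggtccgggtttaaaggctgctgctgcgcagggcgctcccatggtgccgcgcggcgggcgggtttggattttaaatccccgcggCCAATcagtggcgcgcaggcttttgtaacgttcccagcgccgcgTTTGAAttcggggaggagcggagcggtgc
CCNB1: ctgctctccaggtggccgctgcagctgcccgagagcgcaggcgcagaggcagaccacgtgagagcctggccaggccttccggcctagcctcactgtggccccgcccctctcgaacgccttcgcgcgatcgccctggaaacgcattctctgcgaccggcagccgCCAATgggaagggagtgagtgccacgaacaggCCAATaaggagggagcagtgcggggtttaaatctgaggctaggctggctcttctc
In the windows of 300 bases a CHR was found in 17 of the 27 called mitotic genes with an entry (63%) and in 15.2% of all promoters, and a CCAAT box in 22 of 27 (81.5%) and in 34.6%. All mitotic genes tested with an entry had like shares, 62.5% with a CHR and 80% with a CCAAT box, so neither set the called members apart. Over all genes called lower with an entry, 55 of 308 (17.9%) held a CHR, beside 9.92% of the genes tested with an entry, of which 37% held a CCAAT box. A CCAAT box was held by 43.8% of the genes called lower and by 45.2% of those called higher. No letters of this kind bear on whether a factor was bound.

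**Figure D3:**
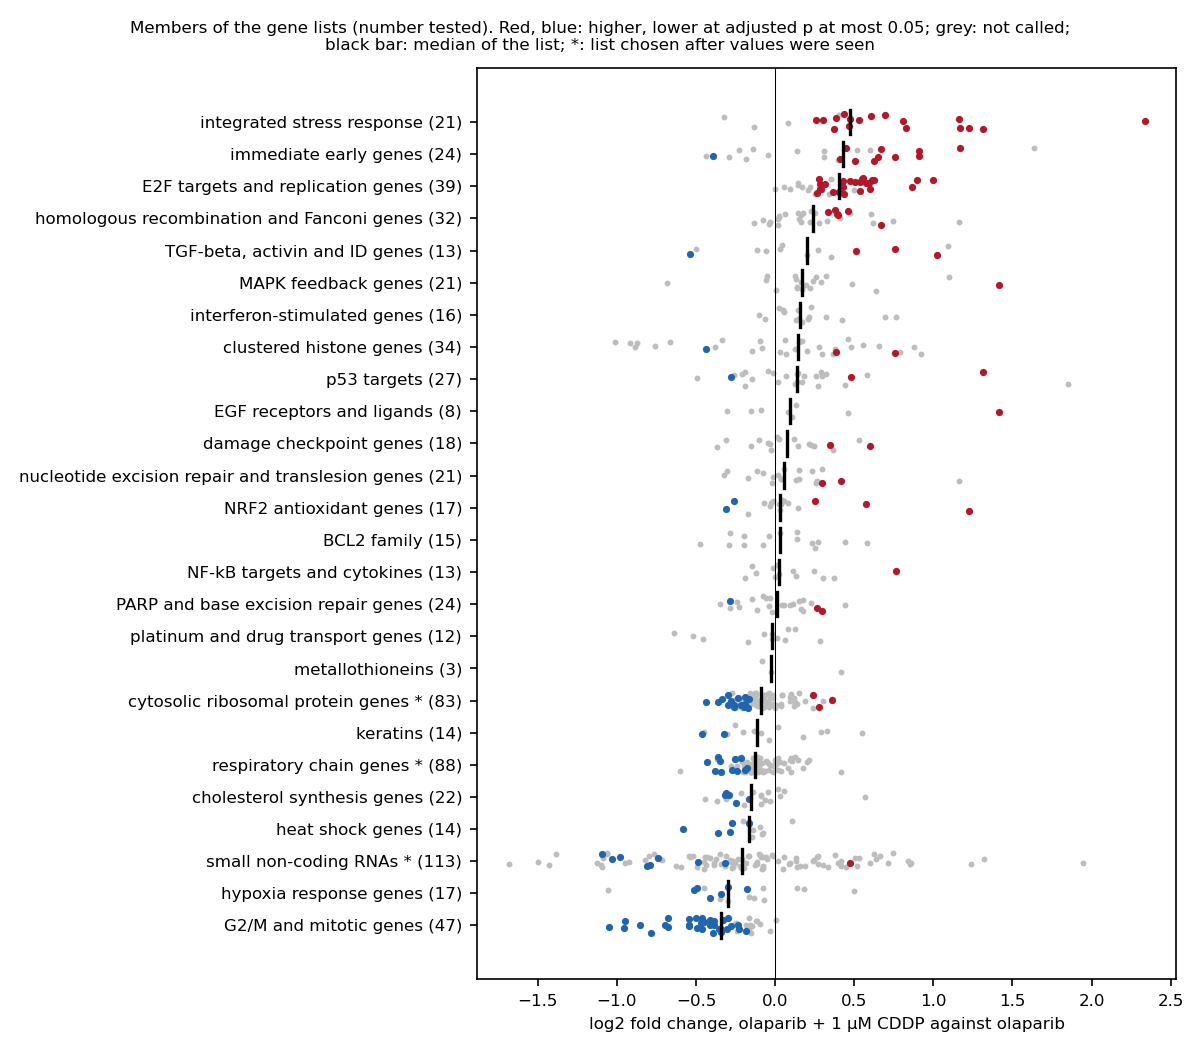
Log2 fold change between olaparib with 1 µM CDDP and olaparib (x axis) for each tested member of 26 gene lists (y axis, number tested in brackets), red where called higher, blue where called lower and grey where not called, with a black bar at each list's median. The ISR list lies furthest to the right and the mitotic list furthest to the left, and most other lists straddle 0.

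Called repair genes changed by small amounts. Of 32 HR and Fanconi genes 6 were higher and 0 lower, where 2.3% of all genes tested were higher. In 28 of the 32 the fold change was positive (median 0.238). BRCA1 stood at 336, 333 and 371 against 422, 465 and 476 (1.31-fold, adjusted p = 0.00152). The others called were BRCA2 (1.3-fold), the helicase BRIP1 (1.59-fold), the resection factor RBBP8 (1.38-fold), RAD51AP1 (1.26-fold) and BLM (1.32-fold). RAD51AP1 lost its call without olaparib replicate 2 (0.25, adjusted p = 0.0665), and BLM lost it without each of 4 libraries. POLH, which encodes the translesion polymerase Pol η, was at 260, 231 and 237 against 294, 256 and 251 (adjusted p = 0.644). PARP1, the target of olaparib, was at 1322, 1244 and 1338 against 1232, 1236 and 1379 (log2 fold change -0.02, adjusted p = 0.924).

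Among 24 PARP and base excision repair genes PARP2 rose 1.23-fold and UNG 1.2-fold, while APEX1 fell 1.22-fold. As a share, 2.3% of all genes tested were higher and 2.97% lower. The calls of UNG and APEX1 were each lost without 4 of the 6 libraries, with adjusted p up to 0.392 for UNG and 0.151 for APEX1. Of 21 nucleotide excision repair and translesion genes 2 were higher, the deubiquitinase USP1 (1.23-fold) and MAD2L2 (1.33-fold), the latter no longer without olaparib replicate 3 (adjusted p = 0.0543) or CDDP replicate 1 (adjusted p = 0.111). Of 18 checkpoint genes CLSPN and TOPBP1 were higher, and TOPBP1 was not without CDDP replicate 3 (adjusted p = 0.0563).

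Of 27 p53 targets 2 were higher, SESN2 and GADD45A, and 1 was lower, the kinase PLK2 (1.21-fold), in a line whose p53 is mutant. Over all genes tested 2.3% were higher and 2.97% lower. GADD45A, a stress sensor that inhibits CDK1 and that the study singled out, gave 111, 115 and 115 without and 156, 162 and 158 with CDDP (1.39-fold, adjusted p = 0.00368), and its adjusted p was 0.0653 where only the 6 libraries compared were fitted. Other genes taken as named by the study were not called: the ephrin receptor EPHB1 (log2 fold change -0.36, adjusted p = 0.371), the mitochondrial polymerase POLG (0.23, adjusted p = 0.748) and CD14 (0.01, adjusted p = 0.999). The study's main text named POLG and CD14 for olaparib and not for CDDP, and does not mention EPHB1. It took GADD45A from the higher CDDP dose and left out the lower one, whose effects it described as minimal. Drug or dose therefore differ, and these values do not test what the study reported. Among 15 BCL2 family genes 0 were called at an adjusted p of 0.05, the largest fold change being 0.58 in BBC3 (adjusted p = 0.144), and among 16 interferon-stimulated genes 0, the largest being 0.77 in IFIT2 (adjusted p = 0.21). Metallothioneins (0 of 3) and platinum and drug transport genes (0 of 12, ATP7B furthest from 0 at -0.64, adjusted p = 0.451) were not called either. Without 1 library at most 1 BCL2 family gene was called, and 0 genes of the other three lists.

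Chaperone, hypoxia and sterol genes fell in part, where 2.97% of all genes tested were lower. Of the 3253 genes with the highest levels, 308 were lower. HSPA1A, the inducible HSP70, went from 2833, 2735 and 2391 to 1771, 1716 and 1815, 1.5-fold lower (adjusted p = 6.36e-10), where its near-identical neighbour HSPA1B makes the assignment of reads uncertain. HSPA8 fell 1.28-fold (adjusted p = 0.000218), and 5 of 14 heat shock genes were lower and 0 higher (median -0.164), 3 without olaparib replicate 3 or CDDP replicate 3. STC1, a hypoxia-inducible glycoprotein, went from 1067, 1120 and 1083 to 715, 827 and 787, 1.41-fold lower (adjusted p = 3.68e-07), and PGK1 of glycolysis fell 1.27-fold (adjusted p = 5.7e-05). Of 17 hypoxia genes 6 were lower and 0 higher (median -0.298), but 3 were without olaparib replicate 3 and 2 without CDDP replicate 1. Of 22 genes of cholesterol synthesis 5 were lower (median -0.151), 2 without olaparib replicate 1 and 3 without CDDP replicate 1 or 2. The simple keratins KRT8 and KRT19 fell 1.38- and 1.25-fold, and these were the 2 of 14 keratins called, 4 without olaparib replicate 3.

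The remaining lists held few calls, where 2.3% of all genes tested were higher and 2.97% lower. Among 17 NRF2 targets SLC7A11, HMOX1 (1.49-fold, adjusted p = 0.0001) and FTL were higher, and the ferritin chain FTH1 and thioredoxin TXN were lower. The calls of FTL, FTH1 and TXN were lost without at least 1 library, both lower calls without olaparib replicate 2 or CDDP replicate 1. In the TGF-beta, activin and ID list of 13, ID4, INHBA and TGFB2 were higher and ID1 was lower, and 1 was higher without CDDP replicate 3. INHBA, TGFB2 and ID1 lost their call without at least 1 library, with adjusted p up to 0.197. ID4, an inhibitor of bHLH factors, went from 102, 95.7 and 67.4 to 189, 155 and 193, a rise of 2.03-fold (adjusted p = 2.03e-07), and 0.84 on the log2 scale without olaparib replicate 3. RELB was the only called gene of 13 NF-kB targets (1.7-fold, adjusted p = 0.0265), with CDDP replicate 1 at 109 above 61.9 and 72.3, and without that library its adjusted p was 0.259. Of 34 clustered histone genes 2 were higher and 1, HIST1H2BK, lower, and 0 were higher without any of 4 libraries (4 without olaparib replicate 3).

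Outside the lists, the DEGs included genes with few reads. ANKRD1, a YAP target, gave 3.68, 4.77 and 9.19 without and 29.9, 44 and 32.7 with CDDP (log2 fold change 2.47 ± 0.365 SE, adjusted p = 3.69e-06), and ZNF829 24.2, 17.9 and 20.9 against 51.2, 44.6 and 49.6. ANKRD33B was at most at 0.825 in the olaparib libraries and at 11, 5.13 and 10.8 with CDDP, too few reads for a fold change. For 9 DEGs, all with low levels, the call was lost without at least 1 library: BCAM, EIF5A2, GFI1, HBEGF, PPIP5K1, TMEM121, ULBP1, ZNF425 and, lower, POLG2. EIF5A2 and POLG2 also overlapped between conditions, and the log2 fold change of POLG2 went from -1.16 to -0.59 without CDDP replicate 2 (adjusted p = 0.37). Adjusted p without 1 library reached 0.317 for BCAM (without CDDP replicate 1), 0.423 for EIF5A2, 0.381 for GFI1 and 0.208 for ZNF425 (all without olaparib replicate 2), 0.22 for PPIP5K1 (without CDDP replicate 1), 0.168 for TMEM121 (without CDDP replicate 2) and 0.0791 for ULBP1 (without olaparib replicate 3). Among long non-coding RNAs, LINC01133 rose 1.88-fold from 151, 145 and 156 to 298, 279 and 278 (adjusted p = 6.36e-10). SNHG1, host of a cluster of small nucleolar RNAs, rose 1.56-fold (adjusted p = 5.65e-09), with CDDP replicate 1 at 4717 above 3543 and 3505.

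Small non-coding RNAs were prominent among the genes that fell by most, although the method captures polyadenylated ends. RNY4 (134, 122 and 164 against 82.6, 61.1 and 53.8, 2.13-fold lower, adjusted p = 9.98e-05) and SNORA12 (206, 214 and 328 against 132, 101 and 127, 2.04-fold lower, adjusted p = 2.21e-05) were DEGs, and SNORA12 lies within CWF19L1. Without olaparib replicate 3 both were under the 2-fold limit, at log2 fold changes of -0.97 and -0.82. In a list drawn up after values were seen, 8 of 113 small non-coding RNAs were lower and 1, SNORD26, was higher (median -0.209), with 5 lower without CDDP replicate 3. They took 0.341 to 0.401% of reads with olaparib, 0.331 to 0.346% with olaparib and CDDP, and 0.205 to 0.215% in untreated cells. In 2 further lists drawn up in the same way, 11 of 88 respiratory chain genes were lower and 0 higher (median -0.129, 6 without olaparib replicate 2 and 19 without olaparib replicate 3), and of 83 cytosolic ribosomal protein genes, whose many processed copies make counting uncertain, 15 were lower and 3 higher (median -0.0905, 6 and 24 lower without the same libraries, and 0 higher without CDDP replicate 1). All 3 lists were picked on these values and are not evidence of a direction. The other lists were drawn up with earlier results of these data known, so their counts are descriptions too.

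The same dose of CDDP was also given without olaparib, in libraries that share none with the comparison above. Against untreated cells, 1374 genes (10.6%) were higher and 1224 (9.41%) lower with 1 µM CDDP, 20% of those tested, with 238 DEGs (1.83%). This set is larger than the 5.26% called on olaparib. Of the 299 genes higher on olaparib 164 (54.8%) had the same sign without it, 85 were called in the same direction and 62 in the opposite one. Of the 386 lower genes 194 (50.3%) had the same sign, with 74 called in the same and 79 in the opposite direction. Over all genes tested 51.7% had the same sign and the fold changes correlated at a Pearson r of 0.0439 (Spearman rho 0.0611), which describes these genes only, since genes of a library are not replicates.

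The lists show where the responses parted. Of 21 ISR genes, 2 were higher and 13 lower with CDDP alone (median -0.471, against 0.475 on olaparib). CHAC1 went from 347, 375 and 313 in untreated cells to 191, 185 and 208 with 1 µM CDDP, a log2 fold change of -0.82, so that its change on olaparib exceeded that without by 3.15 (adjusted p = 1.37e-18 for the difference). The difference was 2 in SLC7A11, 1.92 in STC2, 1.56 in ASNS and 1.46 in SESN2, all with adjusted p under the limit. Immediate early genes had 3 higher and 12 lower without olaparib (median -0.433). EGR1 stood at 736, 828 and 814 in untreated cells and at 286, 327 and 308 with CDDP alone, and at 281 to 380 and 381 to 477 in the olaparib pair. Replication genes moved alike in count, 26 higher and 0 lower with CDDP alone (median 0.356), and the change on olaparib was larger in 3 of the 39 and smaller in 6 by the test of the difference. RRM2 rose by more without olaparib, from 1862, 1885 and 2029 to 4063, 3985 and 4032. Mitotic genes split without olaparib, 6 higher and 11 lower (median -0.0437), and 21 of the 47 fell by more on olaparib.

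Tested gene by gene, the change with CDDP on olaparib exceeded that without olaparib in 672 genes (5.16%) and fell short of it in 919 (7.06%), 12.2% of all genes. With libraries centred on their median these counts were 545 and 1147. Of 113 small non-coding RNAs, in the list drawn up after values were seen, 66 were higher and 0 lower with CDDP alone (median 1.25), and 52 had a lower and 1 a higher change on olaparib. SCARNA22, within NSD2, went from 676, 606 and 617 to 2135, 2455 and 2511 with CDDP alone, and from 1631, 1843 and 1468 to 1284, 1342 and 1325 on olaparib, a difference in log2 fold change of -2.22 (adjusted p = 7.17e-21). Its fall on olaparib was not called without olaparib replicate 2 (adjusted p = 0.147). Their share of reads moved with it, at 0.437 to 0.537% with CDDP alone, and its part in the result was not tested. The 88 respiratory chain genes were also listed after values were seen and are not evidence of a direction. Of them 44 were higher with CDDP alone, where 10.6% of all genes were, and 44 had a lower change on olaparib.

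**Figure D4:**
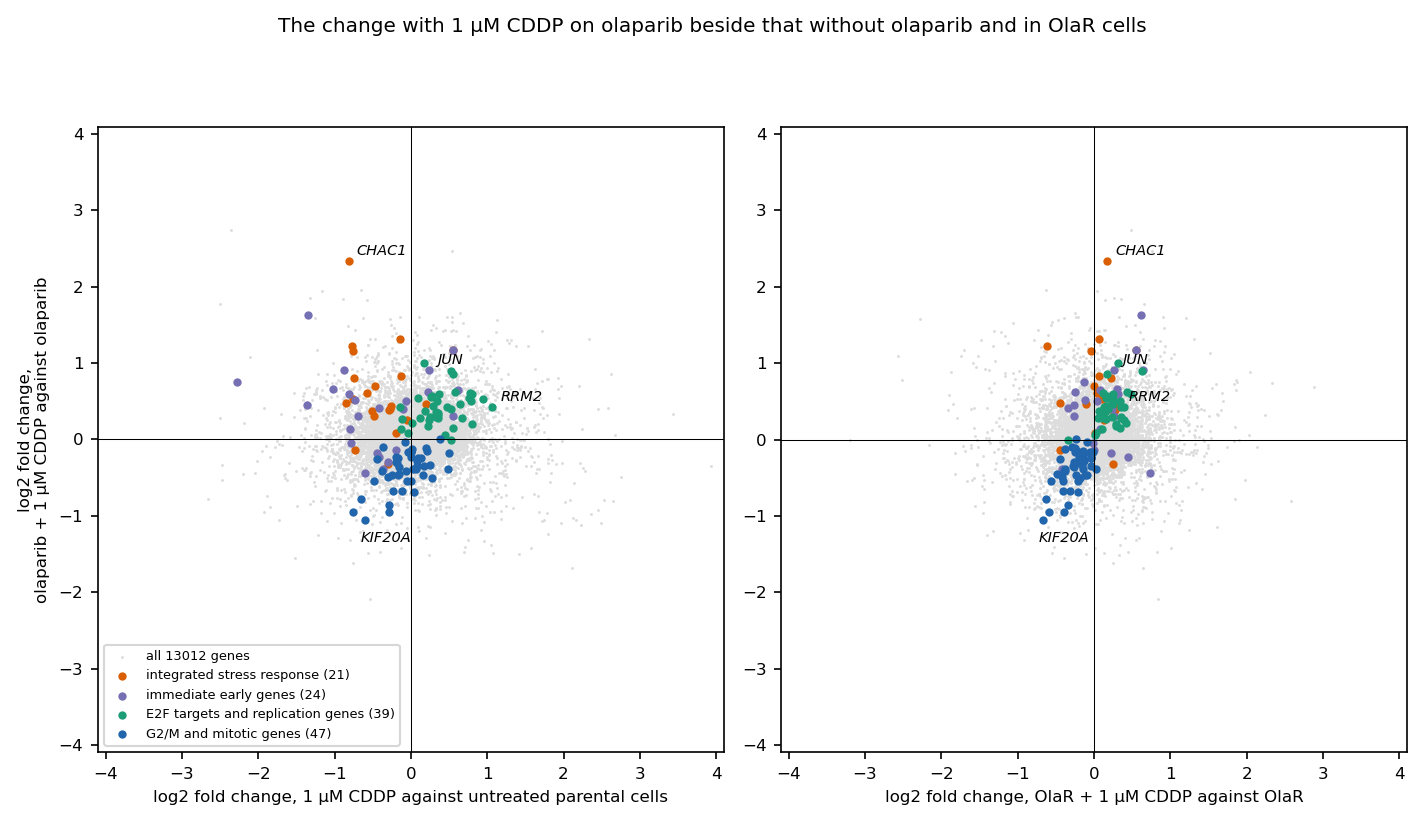
Log2 fold change with 1 µM CDDP on olaparib (y axis of both panels) against that of the same dose in untreated parental cells (left x axis) and in OlaR cells (right x axis), 1 point per gene, with 4 gene lists in colour. Of the 21 ISR genes 19 lie above 0 on the y axis, and most lie left of 0 in the left panel, replication genes lie mostly in the upper right of both, and mitotic genes lie mostly in the lower left of the right panel.

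In OlaR cells 1 µM CDDP gave 240 higher (1.84%) and 379 lower genes (2.91%), 4.76% of those tested, with 51 DEGs (0.392%). That is 619 genes against 685 on olaparib in parental cells, with no library shared, but edgeR on the recovered reads called 377 against 902. Of the 299 higher genes 187 (62.5%) had the same sign in OlaR cells, with 34 called in the same and 4 in the opposite direction, and of the 386 lower genes 248 (64.2%), with 54 and 7. Over all genes 53.6% had the same sign (Pearson r 0.0778, Spearman rho 0.107). Replication genes were higher in 13 of 39 and lower in 0 (median 0.236), and mitotic genes lower in 19 of 47 and higher in 0 (median -0.23). KIF20A stood at a log2 fold change of -0.67 in OlaR cells, against -1.05, and CENPE at -0.59, against -0.95. For ISR genes 3 were higher and 3 lower (median 0.0983). CHAC1 changed by 0.17 (adjusted p = 0.53) and SLC7A11 by -0.61. The change in OlaR cells exceeded that in olaparib-treated parental cells in 181 genes (1.39%) and fell short of it in 196 (1.51%), among them 10 of the 21 ISR genes, 5 of 24 immediate early genes and 3 of 39 replication genes on the lower side, and 4 of 47 mitotic genes on the higher side. The largest such gap in the ISR list was -2.17 in CHAC1 (adjusted p = 9.18e-12), followed by -1.84 in SLC7A11. Without 1 library the 619 genes called in OlaR cells came to as few as 289 (OlaR replicate 1), and to 332, 327 and 372 without OlaR replicate 2 and OlaR + CDDP replicates 2 and 3. The 377 differences (2.9%) came to 248 without olaparib replicate 2, 211 without CDDP replicate 1 on olaparib, 238 without OlaR replicate 1 and 196 without OlaR + CDDP replicate 3. The dose of olaparib, 15 µM against 3 µM, and its duration differed along with the cells.

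Raising CDDP from 1 to 2.5 µM on olaparib changed 368 genes upwards (2.83%) and 625 downwards (4.8%), 7.63% in all, with 38 DEGs (0.292%). This step shares the libraries with olaparib and 1 µM CDDP with the comparison above, and values are given side by side only. Over this step 12 ISR genes were higher and 1 lower of 21, 17 replication genes higher of 39, and 21 mitotic genes lower of 47. CHAC1 went up by a further 0.49 and STC2 by 0.44 on the log2 scale, ATF3 by 1.23 and DUSP1 by 1.29, both more than or near what the first 1 µM had given (1.17 and 1.42). SESN2 moved by 0.28 (adjusted p = 0.18), having gained 1.31 at 1 µM. Among lower genes NDRG1 of the hypoxia list moved by -0.18 at 1 µM and by -1.05 over the step, and ANGPTL4 by -0.51 and -1.26. HMOX1 turned, at 0.57 and then -0.56. Olaparib with 2.5 µM CDDP against olaparib, which shares the olaparib libraries, had 1310 genes higher (10.1%) and 1700 lower (13.1%), with 1.91% of genes past 2-fold. Without olaparib + 2.5 µM CDDP replicate 2 or 3 the step had 650 and 600 called genes in place of 993.

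Calls were also counted by gene span. RefSeq (GRCh38.p14) gave the span of 12828 of the 13012 genes tested (98.6%). Of the 391 genes of 300 kb or more, 59 (15.1%) were lower with CDDP alone and 51 (13%) in OlaR cells, but 3 (0.767%) with 1 µM CDDP on olaparib, and the median log2 fold changes were -0.2, -0.279 and -0.0265. Over all genes tested 9.41% were lower with CDDP alone, 2.91% in OlaR cells and 2.97% on olaparib. Between 1 and 2.5 µM on olaparib 26 of the 391 (6.65%) were lower and 0 higher, beside 4.8% and 2.83% of all genes. Among genes under 10 kb 543 of 2945 (18.4%) were higher with CDDP alone, 95 (3.23%) in OlaR cells and 80 (2.72%) on olaparib, where 139 (4.72%) were lower. The shares higher over all genes were 10.6% with CDDP alone, 1.84% in OlaR cells and 2.3% on olaparib. In the genes of 300 kb or more the change on olaparib exceeded that without in 23 and fell short of it in 1, beside 5.16% and 7.06% of all genes, and the change in OlaR cells fell short of that on olaparib in 13 and exceeded it in 0.

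**Figure D5:**
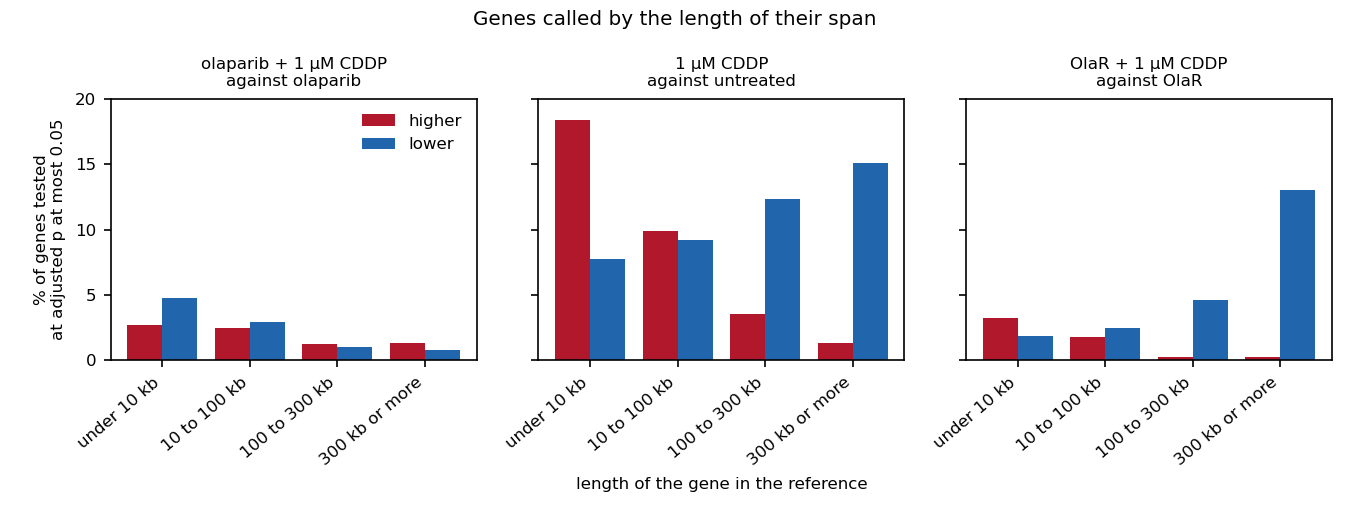
Percent of genes tested that were called higher (red) or lower (blue) with 1 µM CDDP (y axis, from 0) in 4 classes of gene span (x axis), for olaparib-treated parental cells, parental cells without olaparib and OlaR cells. The bar of lower genes grows with span to 15.1% and 13% in the middle and right panels and shrinks to 0.767% in the first.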

How the data were processed

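RNA of MDA-MB-468 cells was sequenced with a 3′ tag kit (QuantSeq FWD). Per the labels, the reads were demultiplexed with CASAVA 1.8.2 and processed with STAR, HTSeq and edgeR on hg38. The authors deposited, as a signal, adjusted read counts that edgeR had scaled to a common library size of 5585170. Forward calculation gave the whole reads behind them: 100% of 1483380 values were given back within a relative difference of 1e-06. The treatment text of the labels writes mM where their titles and the study's methods give µM, which is used here.

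Libraries were grouped by their titles. Genes with at least 10 adjusted read counts in at least 3 of the 27 MDA-MB-468 libraries (13012) were tested with limma 3.58.1 in R 4.3.3 on log2(value + 1), with an intensity trend, all 9 conditions in the fit and Benjamini-Hochberg adjustment. Because the values were not whole counts, edgeR 4.0.16 (quasi-likelihood) and DESeq2 1.42.0 were run on the recovered reads as alternatives. Tested on simulated data over 13012 genes, the limma step called 100% of 4-fold, 84.8 and 88.2% of 2-fold (lower and higher) and 39.4 and 17.6% of 1.5-fold changes, with 3 of 12812 unchanged genes called. The simulation used a larger dispersion than the 0.01039 behind the adjusted read counts, and changed no gene of low level. Its shares therefore check the step and do not measure the sensitivity or the false calls of the fit reported here. Differences between changes were contrasts of the same fit.

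Depth ran from 2070301 to 9268162 reads, and counting error is only part of the spread between libraries. Libraries of the same condition differed by more than sampling noise (chi-square over degrees of freedom 2.84 to 5.64 in the 6 libraries compared). Same-numbered libraries did not deviate together (correlations -0.00237, -0.0228 and -0.0422), so the numbers were not taken as pairs. Genes were named as DEGs, as the 10 smallest p-values in each direction among genes with a mean of at least 50, as list members called at any fold (the furthest from 0 where none was), because the study named them, or for the 3 smallest p-values of each difference between changes. Uncalled list members such as ATF4, FOS and EGFR were picked for description after their values were seen. The members and lists were chosen with earlier results of these data known. Promoters, spans and overlaps came from RefSeq (GRCh38.p14), with 10231 of 13012 genes matched to a promoter.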

Additional observations from a re-analysis of the deposited data

Results flagged for a closer look

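The values below were singled out because the change with 1 µM CDDP differed between settings by a test of the difference itself (a contrast of limma, adjusted over all genes). Between olaparib-treated and untreated parental cells 1591 genes differed in this way, and between OlaR cells and olaparib-treated parental cells 377 did. Each value is a difference of log2 fold changes with 3 libraries in each of the 4 conditions behind it. Values are given for DEGs, for the genes with the smallest p-values, for genes the study named and for those with the smallest p of each difference, and not for genes named as list members alone. What sets the differences was not tested.

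With olaparib minus without it, the ISR genes among these stood at 3.15 for CHAC1, 2.0 for SLC7A11, 1.92 for STC2, 1.56 for ASNS, 1.46 for SESN2 and 1.18 for SLC3A2, and ADM2, outside the list, at 1.79. Over the whole list 19 of 21 genes differed upwards and 0 downwards. In OlaR cells minus olaparib-treated parental cells, the same 6 genes stood at -2.17 for CHAC1, -1.84 for SLC7A11, -1.24 for SESN2, -1.2 for STC2, -0.587 for ASNS and -0.571 for SLC3A2, among 10 of 21 genes of the list that differed downwards. For each of these 6 genes the rise in olaparib-treated parental cells was therefore larger than the change in either of the other settings. The same held for ID4 (1.28 and -1.1), the non-coding SNHG1 (0.922 and -0.845), DTL of the replication list (0.831 and -0.683) and JUN (0.666 and -0.648), the first value of each pair being with olaparib minus without it and the second OlaR minus olaparib-treated parental.

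Lower on olaparib than in either other setting, in the same order, were SNORA12 (-3.15 and 1.58), SCARNA22 (-2.22 and 0.813), KPNA2 (-0.983 and 0.677), CCNB1 (-0.568 and 0.516), STC1 (-0.437 and 0.671) and HSPA1A (-0.333 and 0.431). With olaparib minus without it alone, RNY4 differed by -1.76, PLK1 by -0.675, CDC20 by -0.563, AURKA by -0.437 and CDCA8 by -0.292. ANKRD1 differed by 1.94 and ULBP1 by 2.31, both at low levels. ANKRD33B differed by 5.1, but had less than 1 adjusted read count in 2 conditions, so that this fitted value depends on the pseudocount and is no measure of size. In OlaR cells minus olaparib-treated parental cells, the remaining values were -1.48 for PPIP5K1, -1.66 for BCAM, -1.38 for DUSP1 and -0.849 for LINC01133.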

How the results depend on the processing

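The 23 genes past 2-fold (19 higher, 4 lower) came to 13 (10 higher) where only the 6 libraries compared were fitted, to 38 (30 and 8) with edgeR on the recovered reads under either scaling, and to 3 where the limit was 4-fold (2 on the log2 scale). The lower ones came to 9 without a filter on low values and 7 with libraries centred on their median. The 685 calls of any fold (299 and 386) came to 321 (142 and 179) with only the 6 libraries fitted, where both the libraries behind the spread and the genes tested (11919) were fewer. In OlaR cells the 51 genes past 2-fold came to 30 with a pseudocount of 5, 82 without the filter, 21 with edgeR and 11 with DESeq2, and the 619 calls of any fold to 377 and 367 with edgeR under its own and DESeq2's scaling. The 377 differences between OlaR and olaparib-treated parental cells came to 181 without the filter and 183 with only their groups fitted, and the 38 genes past 2-fold between 1 and 2.5 µM to 22 with only their groups fitted. The cause was not tested for any of these. Fits without any 1 library called 17 to 37 genes past 2-fold (14 to 31 higher, 3 to 10 lower) and 453 to 690 calls of any fold (173 to 292 and 255 to 398), 36 to 52 and 289 to 482 in OlaR cells, 28 to 52 and 600 to 843 over the dose step, and 196 to 452 differences between OlaR and olaparib-treated parental cells. Without olaparib replicate 2 there were 198 higher and 255 lower calls, and without CDDP replicate 1 there were 173 higher. Libraries that moved the other counts are named in the report. With the replicate number as a block 655 genes were called (289 and 366), 22 of them past 2-fold, against 685 and 23, and the pairing check gave no reason to use it. Of 150 named genes with a call, 89 kept it without each of the 6 libraries and 100 under the other 9 settings, and no named value changed sign together with its call. Depth limited genes of low level most, with 0.492% of the lowest 3253 called against 13.7% of the highest 3253.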
